A study of Mus musculus with 5 samples.

Results

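The serotonin receptors described here are Htr1b, Htr1f, Htr2a, Htr2c, Htr4 and Htr7, taken by gene symbol from the feature list shared by 5 single-nucleus RNA libraries. They are 6 of 31053 genes counted, and 6 of the 14 serotonin receptor genes among them. The libraries hold nuclei of the paraventricular hypothalamus (PVH) of male mice on a C57BL6 background, with nuclei of 2 to 4 mice pooled in each library, so animals cannot be told apart within one. All mice carried OT-Cre, a line that drives Cre recombinase from the oxytocin promoter, so that recombination is limited to cells in which that promoter has been active.

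In the saline group the dam had been given saline (10 mL/kg) on gestation day 12.5, and in the VPA group sodium valproate (VPA, an anticonvulsant used to model a prenatal insult) at 500 mg/kg on that day. Both groups carried the tdTomato reporter Ai9, Rosa26tm9(CAG-tdTomato)Hze, and were sampled at 5 weeks of age. The other libraries came from mice with Rosa26dreaddm3, a Cre-dependent hM3 receptor that clozapine N-oxide (CNO) activates. All of these hM3 mice had been exposed to VPA before birth, were given either saline (the hM3 control) or CNO on postnatal day 2, had received an AAV whose content the labels do not give, and were sampled at 5 to 7 weeks. There was 1 library each of the saline, VPA and hM3 control groups and 2 CNO libraries. The PVH was dissected by reporter fluorescence in the Ai9 mice, and the sort on a DNA stain favoured larger nuclei, so shares and levels are those of the sorted nuclei.

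Serotonin reaches the hypothalamus from the raphe nuclei and acts there on receptors that differ in the G protein they use. Htr2a and Htr2c couple to Gq and phospholipase C and excite the cell, Htr1b and Htr1f couple to Gi/o and lower cyclic AMP, and Htr4 and Htr7 couple to Gs and raise it. Htr2c is known for its part in feeding and energy balance and for the editing of its RNA, Htr1b for control of transmitter release from axon terminals, and Htr7 for circadian timing and thalamic excitability.

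After filtering, 4135 to 9829 nuclei per library were used, of which 2642 to 7562 were neurons and 1266 to 2311 glia, and the deposited libraries held 52506958 to 76243280 unique molecular identifiers (UMIs, counted RNA molecules). Between 28 and 61 nuclei of a library carried a barcode also present in another library. Neuron types were defined by UMIs of marker genes that include no serotonin receptor. Sim1 neurons carried the paraventricular lineage factor Sim1, Tcf7l2 neurons the thalamic set Tcf7l2, Lef1, Synpo2 and Prkcd, GABAergic neurons the GABA synthesis or vesicle genes, and other glutamatergic neurons a vesicular glutamate transporter alone. Between 1367 and 4345 neurons of a library met such a definition, and the rest were given no lineage. Sim1 neurons held Sim1 at 399 to 518 CPM (counts-per-million, the UMIs of the gene scaled to all UMIs of its class), and the Oxt neurons among them, with at least 5 Oxt UMIs, held Oxt at 986 to 1454 CPM against 8.27 to 41.5 CPM in the other Sim1 neurons. A level is the CPM of the UMIs of a gene summed over a type in a library, and it is compared within a gene only, since longer genes give more nuclear reads.

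In mm10, and by the GENCODE vM21 annotation of that build, the largest of the 6 genes is Htr2c, at chromosome X from 146962513 to 147197277 on the plus strand. It is 235 kb long, of which 3.97% is exonic, and its introns host the small RNA genes Snora35, Mir448, Mir764, Mir1264, Mir1298 and Mir1912, which the feature list does not count. Htr1f spans 181 kb of chromosome 16 (64924729 to 65105854, minus strand), Htr7 98.8 kb of chromosome 19 (35958734 to 36057507, minus strand) and Htr2a 68.7 kb of chromosome 14 (74640840 to 74709494, plus strand). Htr4 spans 172 kb. Htr1b is the short one, 5.54 kb of chromosome 9 (81628291 to 81633828, minus strand) of which 85.3% is exonic. An antisense gene, D430036J16Rik, overlaps 2.28 kb of Htr1b on the opposite strand and was counted at 7.06 to 10.8 CPM in neurons. Whether the counting used strand is not given in the sources used here, so Htr1b values are uncertain.

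The bases just upstream of 3 of the genes are printed because these genes divided the neuron classes in different ways: Htr2c was higher in GABAergic than in glutamatergic neurons, Htr2a in Sim1 than in Tcf7l2 neurons, and Htr7 in Tcf7l2 than in Sim1 neurons. They are the part of each RefSeq promoter entry (GRCm38.p6, 5′ to 3′ on the gene's own strand) that lies before the first annotated base of the gene, with motif matches in capitals.
Htr2c, chrX:146962263-146962512, plus strand: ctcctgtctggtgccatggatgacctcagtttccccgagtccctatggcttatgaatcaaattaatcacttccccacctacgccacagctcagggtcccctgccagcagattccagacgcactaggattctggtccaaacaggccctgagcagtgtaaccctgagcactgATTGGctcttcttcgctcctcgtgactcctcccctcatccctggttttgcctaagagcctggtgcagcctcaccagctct
Htr2a, chr14:74640624-74640839, plus strand: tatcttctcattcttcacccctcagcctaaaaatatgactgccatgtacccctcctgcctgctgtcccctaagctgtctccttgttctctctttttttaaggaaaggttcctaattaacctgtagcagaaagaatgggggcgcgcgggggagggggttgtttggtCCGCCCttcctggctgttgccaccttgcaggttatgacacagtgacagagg
Htr7, chr19:36057508-36057610, minus strand: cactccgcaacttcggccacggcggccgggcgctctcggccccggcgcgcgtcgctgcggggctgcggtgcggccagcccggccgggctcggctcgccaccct
On both strands 5 motifs were searched. They were the TATA box (TATAAA), the CCAAT box, the GC box (GGGCGG), and for Tcf7l2-type factors the site CTTTGAT and its variant with A in the last place, CTTTGAA. The Htr2c window of 250 bases held 1 CCAAT match, read as ATTGG on the printed strand, which 33.8% of 32851 promoters hold in a window of that length. The Htr2a window of 216 bases held 1 GGGCGG match, read as CCGCCC, which 27.9% of promoters hold. The Htr7 window of 103 bases held no match and had a GC content of 82.5%, against 55.6% for Htr2c and 51.4% for Htr2a.

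All 6 receptors were higher in neurons than in glia, a class from which the choroid plexus-like nuclei described further on had been taken out after high Htr2c was seen there. Glia here are the other non-neuronal classes together, and 274 of their nuclei are vascular. The vascular nuclei held 23 of the 54 glial Htr2a UMIs. Their mean Htr2a was 24.8 CPM (0 to 65.8 CPM by library), above the neuron mean of 17.6 CPM. Htr2c in them ranged from 11.1 to 2260 CPM. In the order saline, VPA, hM3 control, CNO 1 and CNO 2, Htr2c stood at 518, 507, 433, 369 and 426 CPM in neurons. Htr4 stood at 93.4, 91.1, 106, 88.6 and 78.2 CPM and Htr7 at 109, 101, 104, 95.8 and 92.2 CPM. Htr1f stood at 81.6, 66.9, 70.7, 66.5 and 88.6 CPM, Htr2a at 19.1, 19.3, 18.6, 18.2 and 12.6 CPM and Htr1b at 6.47, 7.09, 8.02, 7.29 and 7.14 CPM. Htr2c ranged from 369 CPM in CNO 1 to 518 CPM in saline, and Htr2a was lowest in CNO 2, at 12.6 CPM. The neuron values lay above those of glia in every library, where Htr4 ranged from 2.63 to 5.62 CPM, Htr7 from 3.94 to 5.98 CPM, Htr1f from 3.18 to 5.96 CPM, Htr2a from 0.884 to 4.17 CPM and Htr1b from 0.617 to 1.76 CPM.

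By edgeR's quasi-likelihood test with the library as a block, 6 of 6 receptors were higher in neurons, and 69.9% of the 18021 genes tested were called (35.3% higher). The log2 fold changes ran from 3.13 (SE 0.26, adjusted p = 2.18e-05) for Htr1b to 4.71 (SE 0.20, adjusted p = 8.69e-07) for Htr4, and that of Htr2c was 3.66 (SE 0.43, adjusted p = 0.000147). Glial Htr2c was 30.2, 17.2, 26.3 and 35.9 CPM in 4 libraries but 173 CPM in the saline library. There, 4 of 1266 glial nuclei carried 671 of the 844 glial Htr2c UMIs, and without those nuclei the level was 35.8 CPM. With the choroid plexus-like nuclei counted as glia, glial Htr2c in the saline library was 2453 CPM, above the 518 CPM of neurons, and the log2 fold change over all 5 libraries was 3.37 (edgeR adjusted p = 0.0224).

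The share of nuclei with at least 1 UMI depends on depth, and neurons had medians of 6152 to 17539 UMIs against 1918 to 4059 in glia, so each nucleus was thinned at random to 2000 UMIs. Thinning left out 1 to 113 neurons and 62 to 1143 glia per library. An Htr2c UMI was then found in 34.2 to 40.1% of neurons, median 38.9%, against 2.85 to 6.81% of glia. An Htr7 UMI was found in 13.9 to 16.0% of neurons and an Htr4 UMI in 12.2 to 17.1%, against at most 1.09% and 0.931% of glia. Htr1f was found in 8.45 to 12.5% of neurons (glia 0.776 to 1.43%), Htr2a in 2.68 to 3.73% (glia 0.104 to 0.589%) and Htr1b in 1.23 to 1.64% (glia 0.0842 to 0.418%). Without thinning, the neuron shares were 53.9 to 64.6% for Htr2c, 34.7 to 54.4% for Htr7, 34.5 to 58.4% for Htr4, 18.4 to 36.4% for Htr1f, 9.65 to 18.1% for Htr2a and 4.19 to 11.9% for Htr1b.

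Of the other 8 receptor genes, Htr2b had a mean of 17.4 CPM in neurons and 11.9 CPM in glia. It lies wholly inside Psmd1, a proteasome gene on the opposite strand with 102 to 112 CPM, so its value is uncertain. Htr1d (2.34 CPM), Htr5a (2.27 CPM), Htr6 (1.51 CPM), Htr1a (0.619 CPM), Htr3a (0.536 CPM), Htr5b (0.181 CPM) and Htr3b (0.0727 CPM) were low. Transcripts of serotonin neurons were near 0, with means of 0.419 CPM for Tph2, the enzyme that makes serotonin in neurons, 0.242 CPM for the transporter Slc6a4 and 0.0660 CPM for the serotonin neuron factor Fev.

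The 14 neuron types, named by a class and the marker that divides it, differed in all 6 receptors. GABA Isl1, GABA Lhx6/Lhx8 and GABA Moxd1 nuclei are not among the 14, because the CNO 2 library held 9, 4 and 3 of them and a type needed 10 nuclei in each library. In the fit of each type against the mean of the other types, 56 of the 84 receptor values were called, 38 higher and 18 lower. Of all 12733 genes tested, 4.66% (GABA Pax6) to 45.2% (Tcf7l2 Prkcd) were called in a type. Means below are over the 5 libraries, which include all treatments, with their SD. The order of types is given as a description, since an exact sign-flip permutation test over 5 libraries cannot give a p below 0.0625. Of 13 neighbouring pairs per gene, the first type was higher in all 5 libraries in 2 pairs for Htr2a, 2 for Htr2c and 1 for Htr1f, and in 0 for Htr1b, Htr4 and Htr7.

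By type, most calls in GABA types were higher and all in Oxt neurons lower. The reference is the mean log level of the other types, which types near 0 pull down. Htr2a, at 0.104 CPM in Tcf7l2 Prkcd, 2.46 CPM in Tcf7l2 other and 4.49 CPM in Oxt nuclei, was called higher in 9 of 14 types, among them GABA Meis2, which at 17.5 CPM ranked 10 of 14. A higher call is thus not a high rank. In the comparison of GABAergic with glutamatergic neurons by transmitter genes, given further on, Htr2c and Htr4 were higher, and Htr7 and Htr1f lower. Htr2a and Htr1b did not pass there. GABA Prox1 nuclei were higher in 5 receptors, in a type where 5.87% of 12733 genes were called (3.58% higher, 2.29% lower). GABA Meis2 nuclei were higher in 5 (13.4% of genes called, 8.25% higher, 5.11% lower), and GABA Reln nuclei in 5 (11.8%, 6.75% higher, 5.07% lower). GABA other nuclei were higher in 4 and lower in 1 (11.3%, 6.51% higher, 4.82% lower). GABA Foxp2 nuclei were higher in 3 (5.69%, 3.97% higher, 1.71% lower), GABA Lhx1/Lhx1os in 3 (7.23%, 4.10% higher, 3.13% lower) and GABA Pax6 in 2 (4.66%, 2.34% higher, 2.32% lower). In each GABA type the share of receptors called higher was above the share of genes.

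Oxt neurons were lower in 6 of 6 receptors (31.2% of genes called, 16.4% higher, 14.8% lower). Sim1 Ebf nuclei were higher in 1 and lower in 1 (16.7%, 9.90% higher, 6.82% lower). Sim1 Reln nuclei were higher in 2 and lower in 2 (14.8%, 8.86% higher, 5.95% lower), as were Sim1 other nuclei (13.8%, 8.07% higher, 5.77% lower). Tcf7l2 other nuclei were higher in 2 and lower in 2 (41.5%, 22.2% higher, 19.3% lower), and Tcf7l2 Prkcd nuclei higher in 2 and lower in 3 (45.2%, 22.3% higher, 22.9% lower), so that calls there stood nearer the background. Other glutamatergic neurons were higher in 2 and lower in 1 (7.44%, 5.72% higher, 1.72% lower). By gene, Htr2a and Htr2c were called in 12 of 14 types each, Htr4 in 10, Htr1f and Htr7 in 8 and Htr1b in 6. With 1 library left out, 49 to 53 values were called. Without the CNO 2 library the calls for Htr2a in Oxt neurons (log2 fold change -1.61, and -1.75 with it) and Tcf7l2 other nuclei (-2.33, and -2.31 with it) were lost, each at an edgeR adjusted p = 1, although the fold changes moved little. The calls for Htr4 and Htr7 in Sim1 Reln nuclei were lost without the saline library. The Htr7 call in other glutamatergic neurons was lost without the hM3 control or the CNO 1 library.

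Most of the calls lost when 1 library was left out were in GABA types, and several were lost whichever of 2 to 4 libraries was left out. In GABA Reln nuclei the Htr1f call was lost without the saline, VPA or hM3 control library, the Htr7 call without the VPA or hM3 control library, and the Htr2a call without the saline or CNO 1 library. The Htr4 call was lost in GABA Foxp2 nuclei without the saline, VPA or CNO 2 library and in GABA Pax6 nuclei without the VPA library. In GABA Prox1 nuclei the Htr2c call was lost without the CNO 1 library and the Htr2a call without the saline library.

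**Figure D1:**
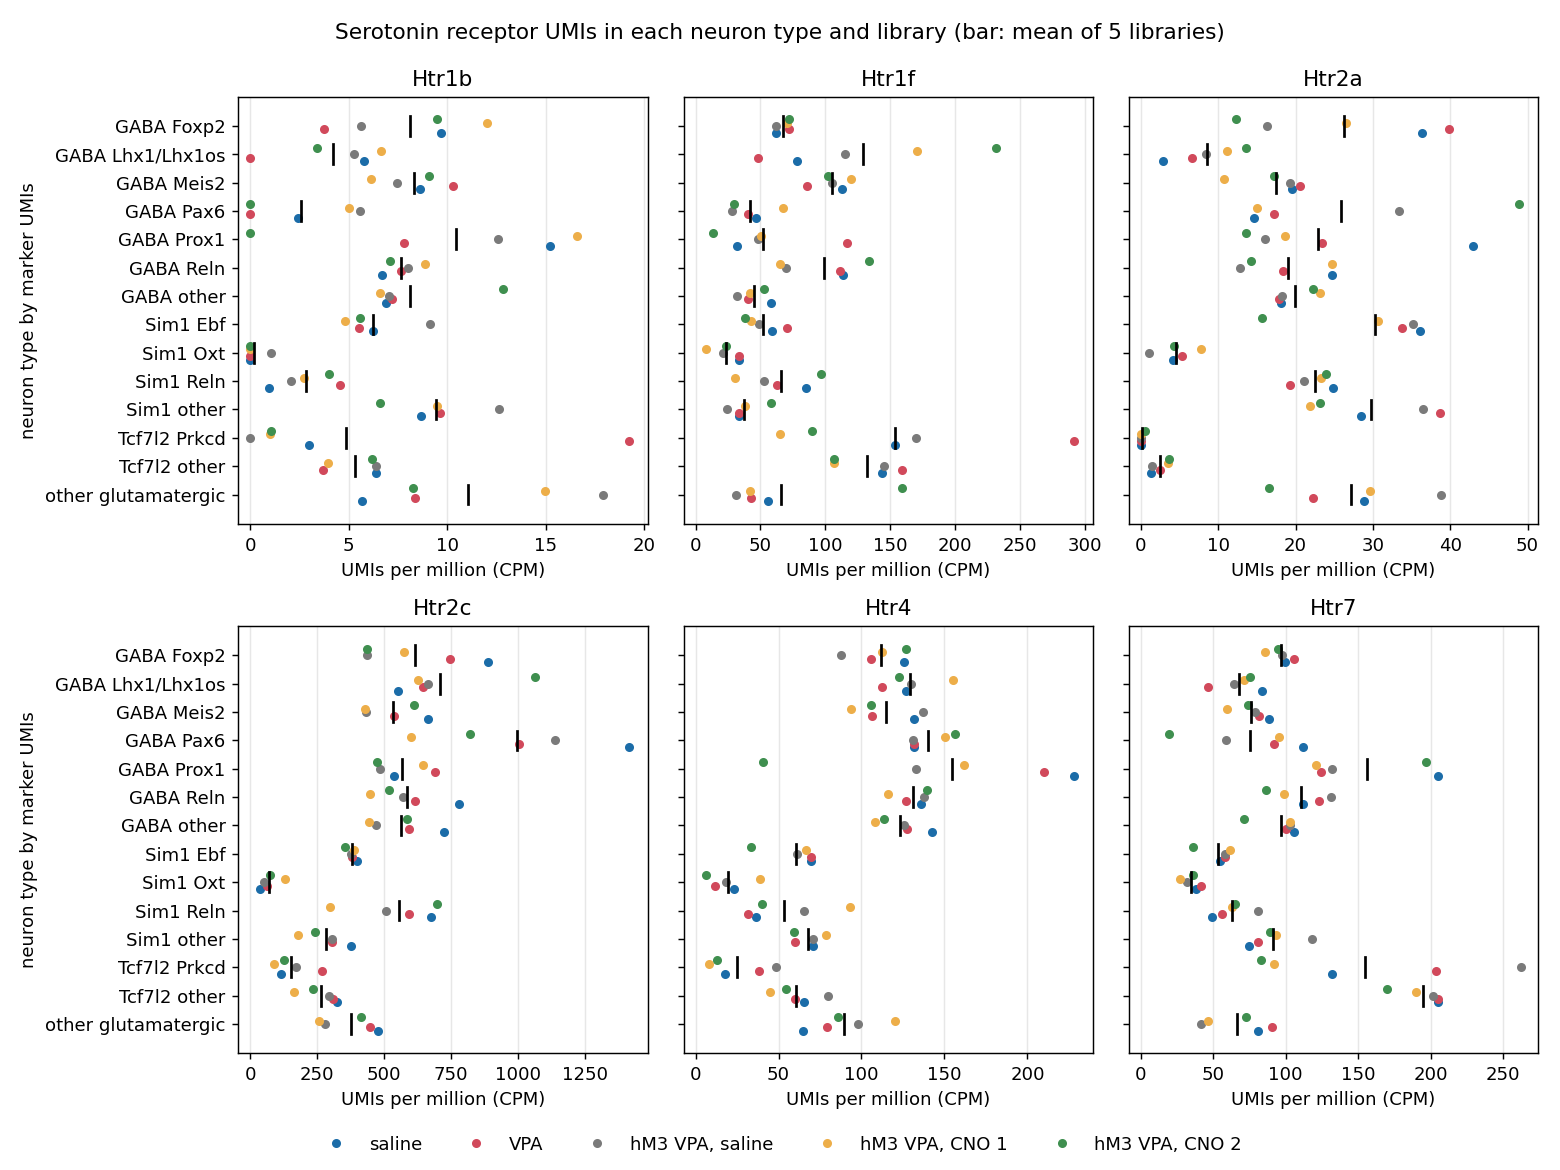
Level of each receptor (CPM, linear axis) in 14 neuron types. Points are the 5 libraries by colour and vertical bars their mean, and each panel has its own scale. Htr2c is highest in GABA Pax6 nuclei, Htr2a is near 0 in both Tcf7l2 types, Htr7 is highest in Tcf7l2 other nuclei, and all 6 are low in Sim1 Oxt nuclei.

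Among the Gq-coupled receptors, Htr2c had its highest mean in GABA Pax6 nuclei, 996 ± 309 CPM (SD, n = 5 libraries, 10 to 34 nuclei in each). The saline, VPA, hM3 control, CNO 1 and CNO 2 libraries gave 1414, 1002, 1138, 602 and 822 CPM. Against the other types the log2 fold change was 1.37 (SE 0.14, edgeR adjusted p = 1.60e-11), where 2.34% of genes were called higher. The 6 other GABA types held means from 535 to 710 CPM, and their neighbours in the order did not differ beyond their spread. Sim1 Reln nuclei, at 555 ± 162 CPM, stood among them, while Sim1 Ebf nuclei held 379 ± 16.1 CPM and Sim1 other nuclei 282 ± 75.0 CPM. GABA Meis2, at 535 ± 106 CPM, was above Sim1 Ebf in all 5 libraries with no overlap of the ranges. Tcf7l2 other nuclei, at 265 ± 66.1 CPM, were above Tcf7l2 Prkcd nuclei, at 154 ± 70.8 CPM, in all 5 libraries, and Oxt neurons came last.

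Htr2c was spread unevenly between single neurons. The median neuron held 1.06 to 1.76 Htr2c UMIs per 10000, and the 90th percentile was 11.03 to 16.8 per 10000. The tenth of neurons with the highest rate held 46.5 to 48.2% of the summed rates in each library. This concentration differed by less than 2 percentage points between the 5 libraries.

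Htr2a separated the Sim1 and Tcf7l2 neurons more than any other of the 6 genes. It was 27.6, 30.1, 28.1, 25.7 and 18.2 CPM in the Sim1 lineage and 1.11, 2.32, 1.24, 2.16 and 2.58 CPM in the Tcf7l2 lineage of the saline, VPA, hM3 control, CNO 1 and CNO 2 libraries. The values did not overlap. Within the Tcf7l2 lineage, 60 Htr2a UMIs came from Tcf7l2 other nuclei and 1 from Tcf7l2 Prkcd nuclei, a ratio of CPM of 0.0602 (exact interval 0.00150 to 0.348). Among the 14 types, Sim1 Ebf (30.3 ± 8.42 CPM) and Sim1 other (29.7 ± 7.61 CPM) held the highest means, with other glutamatergic neurons at 27.2 ± 8.39 CPM and GABA Foxp2 at 26.3 ± 12.0 CPM. The highest 6 types overlapped one another. The GABA Lhx6/Lhx8 nuclei left out of the 14 held 60.2, 7.10, 22.9, 17.0 and 147 CPM, on 45, 1, 20, 13 and 4 UMIs, and the last value came from 4 nuclei. After thinning, an Htr2a UMI was found in 3.74 to 5.41% of Sim1 neurons without Oxt and in 0 to 0.450% of Tcf7l2 neurons. Glia had 0.104 to 0.589%, so the Tcf7l2 share was not above the glial range.

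Of the Gs-coupled receptors, Htr4, which lies on chromosome 18, was highest in GABAergic neurons. All 7 GABA types, from 112 ± 16.2 CPM in GABA Foxp2 to 155 ± 74.2 CPM in GABA Prox1, had higher means than any of the other 7 types, whose highest was other glutamatergic at 89.7 ± 20.9 CPM. GABA Prox1 stood above the other types by a log2 fold change of 1.15 (SE 0.16, edgeR adjusted p = 2.48e-07), though its libraries ranged from 40.7 to 228 CPM. GABA Reln was the most even, at 131 ± 9.74 CPM. Htr4 was lowest in Tcf7l2 Prkcd nuclei (25.2 ± 17.5 CPM) and Oxt neurons (19.7 ± 12.4 CPM).

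Htr7 had its highest mean in Tcf7l2 other nuclei, where the 5 libraries gave 205, 205, 201, 190 and 170 CPM. Their log2 fold change against the other types was 1.47 (SE 0.09, edgeR adjusted p = 5.63e-24), in a type where 22.2% of genes were called higher. GABA Prox1 nuclei followed at 156 ± 41.3 CPM (log2 fold change 0.81, SE 0.15, adjusted p = 0.000102) and Tcf7l2 Prkcd nuclei at 154 ± 76.8 CPM. These 3 types overlapped. After thinning, 20.3 to 30.4% of Tcf7l2 neurons had an Htr7 UMI against 9.72 to 13.1% of Sim1 neurons without Oxt.

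Of the Gi/o-coupled receptors, Htr1f was, like Htr7, highest in Tcf7l2 neurons. Its highest means were in Tcf7l2 Prkcd (154 ± 88.6 CPM), Tcf7l2 other (132 ± 23.9 CPM) and GABA Lhx1/Lhx1os nuclei (129 ± 73.5 CPM). Tcf7l2 other nuclei were above the other types by a log2 fold change of 1.28 (SE 0.14, edgeR adjusted p = 2.33e-12). The call for GABA Lhx1/Lhx1os nuclei (1.00, SE 0.23, adjusted p = 0.00216) was lost without the CNO 1 library (adjusted p = 0.107). Sim1 other nuclei, at 37.6 ± 12.7 CPM, exceeded Oxt neurons, at 23.8 ± 10.6 CPM, in all 5 libraries. Htr1b, the least counted of the 6, had means from 2.60 to 11.04 CPM in 13 types, with no pair of neighbours higher in all 5 libraries. It was called higher in 5 types, which were other glutamatergic neurons (1.29, SE 0.25, adjusted p = 0.000170), Sim1 other (0.98, SE 0.24, adjusted p = 0.00187) and 3 GABA types. Of these, the call for GABA Prox1 nuclei (1.48, SE 0.34, adjusted p = 0.00228) was lost without the CNO 1 library (adjusted p = 0.0774), and that for GABA Meis2 nuclei (0.77, SE 0.21, adjusted p = 0.0062) without the saline library (adjusted p = 0.0686). The call for GABA other nuclei (0.58, SE 0.20, adjusted p = 0.0486) was lost without the saline, VPA, CNO 1 or CNO 2 library. For Htr1b the mean of the other types includes Oxt neurons, at -4.35 on 1 UMI in all, which lowers that reference. Between GABAergic and glutamatergic neurons and between Sim1 and Tcf7l2 neurons, given further on, Htr1b did not pass.

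Oxt neurons, the cells in which OT-Cre acts, were lower in all 6 receptors than the other Sim1 neurons. The libraries held 82, 76, 46, 13 and 42 Oxt neurons. Htr2c was 37.6, 61.1, 50.4, 132 and 73.9 CPM in them (34 to 55 UMIs a library) against 464, 397, 393, 313 and 416 CPM in the other Sim1 neurons. Every Oxt value was below every other value. Htr2a was 4.10, 5.31, 1.07, 7.75 and 4.22 CPM (15 UMIs in all) against 30.5, 32.5, 31.7, 26.9 and 20.7 CPM, again with no overlap. Htr4 was 23.2, 12.0, 18.2, 38.7 and 6.33 CPM against 61.3, 57.3, 65.1, 75.0 and 44.6 CPM.

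Htr7 and Htr1f differed less. Htr7 was 38.3, 41.2, 32.2, 27.1 and 35.9 CPM in Oxt neurons against 59.9, 66.8, 80.9, 70.3 and 63.4 CPM, without overlap. Htr1f was 33.5, 33.2, 21.4, 7.75 and 23.2 CPM against 57.3, 53.8, 43.1, 39.0 and 62.6 CPM, also without overlap. Of Htr1b a single UMI was counted in the 259 Oxt neurons, in the hM3 control library, against 216 UMIs in the other Sim1 neurons, a ratio of CPM of 0.0396 (exact interval 0.000998 to 0.223).

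By edgeR's test all 6 were called lower, in a comparison in which 21.5% of 11366 genes were called and 10.2% were called lower. The log2 fold change was -2.77 for Htr2c (SE 0.17, adjusted p = 1.08e-11), -2.92 for Htr2a (SE 0.28, adjusted p = 2.34e-08) and -1.68 for Htr4 (SE 0.17, adjusted p = 4.75e-08). It was -0.95 for Htr1f (SE 0.15, adjusted p = 4.11e-05) and -0.89 for Htr7 (SE 0.13, adjusted p = 1.44e-05). For Htr1b the adjusted p was 5.65e-05. The median over the 6 was -2.23, against 0.03 over all genes tested. The median UMIs per Oxt neuron, 8964 to 18597.5, were above those of the other Sim1 neurons in each library. Within nuclei of at least 10000 UMIs, an alternative added after the data were seen, the 5 receptors that could be fitted kept their calls.

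At 2000 UMIs, 23 of 259 Oxt neurons had an Htr2c UMI, or 8.88% (exact 95% interval 5.71 to 13.03%), against 30.7% of the other Sim1 neurons (28.9 to 32.5%) and 4.86% of glia (4.34 to 5.43%). No Oxt neuron had an Htr2a or an Htr1b UMI at that depth. This allows a share of up to 1.16% by a limit of 3 counts in 259 nuclei, or 1.41% by the exact interval. Glia had 0.242% for Htr2a and 0.178% for Htr1b, so neither gene was detected above the glial background at 2000 UMIs. Thinned to 4000 UMIs instead, an Htr2a UMI was found in 0 to 7.69% of Oxt neurons by library, median 2.17%, against 0.115 to 3.02% of glia, median 0.478%. An Htr1b UMI was then found in 0 to 2.17% of Oxt neurons and 0 to 0.503% of glia. Htr7 (5.02%, 2.70 to 8.43%), Htr1f (5.79%, 3.28 to 9.37%) and Htr4 (3.47%, 1.60 to 6.49%) were above their glial shares of 0.953%, 1.00% and 0.678%. These intervals cover counting error only.

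Oxt neurons were also divided by Reln, which some Sim1 neurons carry, at 2 or more UMIs. Htr7 was higher in those with Reln (30, 18, 8, 4 and 10 nuclei) in 5 of 5 libraries, at 67.1, 59.4, 36.0, 64.0 and 105 CPM against 20.8, 35.2, 31.5, 11.1 and 8.82 CPM. The counts behind these values are 5 to 37 UMIs with Reln and 2 to 25 without. Htr1f was higher with Reln in the saline (59.9 against 17.5 CPM), VPA (81.0 against 17.6 CPM) and CNO 2 libraries and lower in the hM3 control and CNO 1 libraries, where those with Reln held 1 and 0 UMIs. Htr2c gave no common direction. The difference by Reln was not tested.

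**Figure D2:**
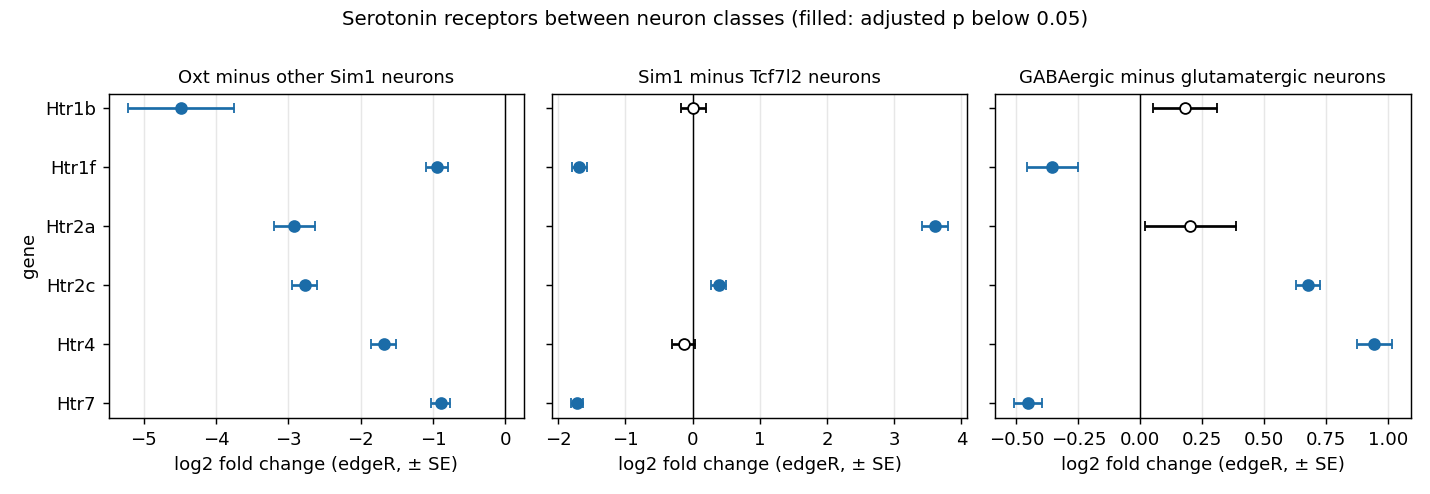
Log2 fold change of each receptor from edgeR (x axis) with its standard error, for Oxt against other Sim1 neurons, Sim1 against Tcf7l2 neurons, and GABAergic against glutamatergic neurons. Filled points have an adjusted p below 0.05. All 6 are filled and below 0 for Oxt neurons, and Htr2a is at 3.61 on the Sim1 side of the middle panel.

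Sim1 neurons were higher than Tcf7l2 neurons in both Gq-coupled receptors and lower in Htr7 and Htr1f. Htr2a was higher in Sim1 neurons by a log2 fold change of 3.61 (SE 0.19, edgeR adjusted p = 3.75e-08), and Htr2c by 0.39 (SE 0.11, adjusted p = 0.0149). Htr7 was lower by -1.73 (SE 0.09, adjusted p = 2.70e-08) and Htr1f by -1.69 (SE 0.12, adjusted p = 2.98e-07). Here 45.0% of 14242 genes were called, with 23.5% higher and 21.5% lower. Htr7 was 57.5, 64.5, 75.2, 67.6 and 59.1 CPM in Sim1 neurons and 195, 205, 209.1, 152 and 141 CPM in Tcf7l2 neurons. Htr1f was 54.7, 52.0, 40.6, 37.1 and 56.5 CPM against 145, 167, 148, 90.9 and 101 CPM. Neither gene's values overlapped. For Htr2c the ranges overlapped, at 302 to 417 CPM in Sim1 and 134 to 306 CPM in Tcf7l2 neurons. The Htr2c call was lost without the CNO 2 library (0.31, edgeR adjusted p = 0.0658). Htr4 did not pass the test (-0.13, SE 0.17, adjusted p = 0.560), but did without the CNO 1 library (-0.37, adjusted p = 0.000479). Htr1b was at 0.01 (SE 0.19, adjusted p = 0.975).

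GABAergic neurons were compared with glutamatergic neurons by transmitter genes alone, a split that crosses the Sim1 and Tcf7l2 classes. A nucleus needed at least 2 UMIs of its own transmitter genes and none of the other set. This gave 7663 GABAergic and 2442 glutamatergic nuclei, while the Sim1 and Tcf7l2 lineages held 2946 and 2012. Part of those lineages is thus left out. Htr2c was 695, 603, 489, 450 and 523 CPM in GABAergic neurons and 390, 392, 301, 228 and 288 CPM in glutamatergic neurons, without overlap. Htr4 was 142, 122, 128, 113 and 107 CPM against 56.7, 57.4, 67.7, 62.4 and 48.3 CPM, also without overlap. Both were called higher, with log2 fold changes of 0.68 (SE 0.05, edgeR adjusted p = 3.93e-06) and 0.94 (SE 0.07, adjusted p = 6.06e-06), and 27.6% of 15795 genes were called (12.4% higher, 15.2% lower). Htr7 was lower by -0.45 (SE 0.06, adjusted p = 0.000200). Htr1f was lower by -0.36 (SE 0.10, adjusted p = 0.0264), a call lost without the saline (-0.26, adjusted p = 0.145), hM3 control (-0.27, adjusted p = 0.108) or VPA library (-0.34, adjusted p = 0.0693). Htr2a (0.20, SE 0.18, adjusted p = 0.470) and Htr1b (0.18, SE 0.13, adjusted p = 0.344) did not pass the test.

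A non-neuronal class held more Htr2c per UMI than any neuron type. In the saline library 65 nuclei carried the choroid plexus markers Folr1 (186 CPM), Kl (785 CPM) and Clic6 (792 CPM) together with Ttr (8147 CPM), and are called choroid plexus-like. Choroid plexus epithelium, which makes cerebrospinal fluid, is a known site of high Htr2c. All 65 nuclei held Htr2c, with 21 to 755 UMIs and a median of 149, and the class stood at 23476 CPM, or 2.35% of its UMIs. No such nuclei were found in the other 4 libraries. They carried 28.6% of all Htr2c UMIs of the saline library, while neurons carried 67.8% there and 96.3 to 99.2% in the other libraries. Of the other 5 receptors they held 1 UMI in all, of Htr1f, and at 2000 UMIs none of the 65 had a UMI of any of them. This allows a share for each of up to 4.62% by a limit of 3 counts in 65 nuclei, or 5.52% by the exact interval. Ttr was 304 CPM in glia and 93.0 CPM in neurons of the saline library against at most 4.53 CPM elsewhere. What part free RNA of these cells had in the Htr2c level of saline neurons was not tested.

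**Figure D3:**
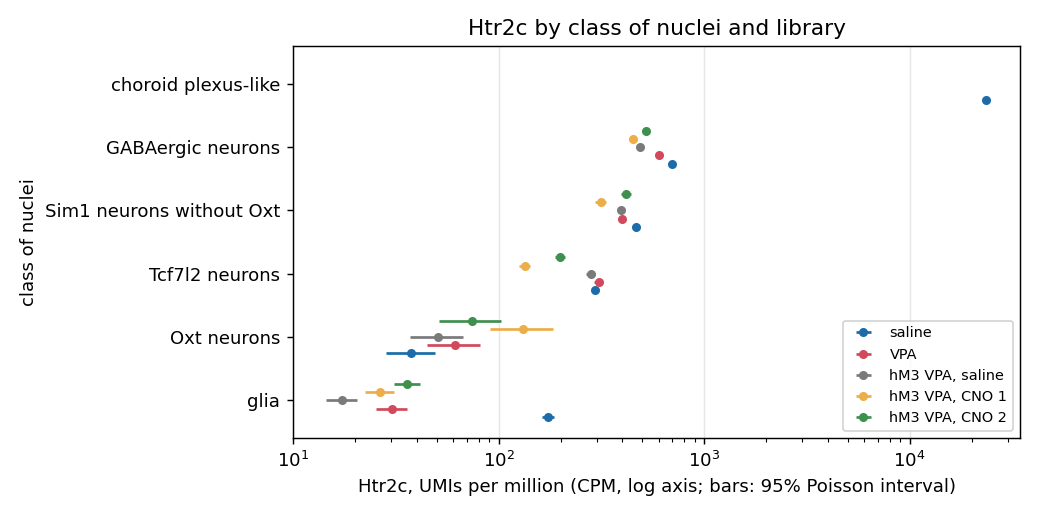
Htr2c in classes of nuclei (CPM, log axis), with 1 point per library and 95% Poisson intervals that cover counting error only. The choroid plexus-like nuclei of the saline library stand at 23476 CPM, the GABAergic (by transmitter genes), Tcf7l2 and other Sim1 neurons between 134 and 695 CPM, and glia are lowest except in the saline library, at 173 CPM.

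The partners through which the receptors act were counted from lists of coupling genes. In Oxt neurons, 5 of the 8 tested Gq-coupling genes were lower than in other Sim1 neurons and 1 was higher (median -0.46, all genes 0.03), where 10.2% of all genes were lower and 11.3% higher. Itpr1, the calcium release channel (-0.86), and the kinases Prkca (-0.78) and Prkcb (-0.63) were lower, and the phospholipase Plcb1 was higher (1.02). Of 8 Gi/o genes 3 were lower and 1 higher (median 0.04), led by the potassium channel subunit Kcnj3 (-1.65). Of 11 Gs genes 4 were lower and 3 higher (median -0.03), with the adenylyl cyclase Adcy2 higher (1.46) and Gnas, the Gs alpha subunit, lower (-0.71). The RNA-editing enzymes Adarb1 (-0.83) and Adar (-0.28) were lower, as was Adarb2 (-0.49), a relative of theirs that is not known to edit. S100a10, which binds Htr1b and Htr4, was higher (1.77), and Ddc, which makes serotonin and dopamine from their precursors, was lower (-2.90). These are log2 fold changes from the same edgeR fit, all with adjusted p below the 0.05 threshold.

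In Sim1 against Tcf7l2 neurons, where 21.5% of all genes were lower and 23.5% higher, 4 of 8 Gq genes were lower and 2 higher (median -0.33, all genes 0.03), with Plcb4 (-1.80) and Itpr1 (-1.61) lower and Prkca (1.17) higher. Of 9 Gi/o genes 5 were lower and 1 higher (median -0.22), among them Kcnj5 (-2.30) and Kcnj9 (-1.85). Of 11 Gs genes 4 were lower and 3 higher (median -0.06), with Adcy2 (1.60) and Gnas (1.27) higher. Adarb1, which edits Htr2c RNA, was lower in Sim1 neurons (-2.31), as was Maob, which breaks down amines (-3.58). In GABAergic against glutamatergic neurons, where 15.2% of all genes were lower and 12.4% higher, 6 of 9 Gi/o genes were lower and 1 higher (median -0.20, all genes 0.01), and 4 of 11 Gs genes were higher and 2 lower (median -0.01). Slc18a2, the vesicular monoamine transporter (1.79), Ddc (1.59) and Gch1, which makes the cofactor of the hydroxylases (1.10), were higher there, and Maob (-3.14) and the G protein regulator Rgs4 (-1.52) lower.

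Single neurons often had none or 1 of the 6 receptors at 2000 UMIs. In the 5 libraries 37.5 to 42.7% of neurons had a UMI of none, 40.8 to 42.6% of 1, 14.0 to 17.0% of 2, 2.40 to 3.12% of 3 and 0.209 to 0.289% of 4, and no neuron had more. In Sim1 neurons without Oxt, 110 nuclei had both an Htr2c and an Htr4 UMI against 83.4 if the genes were independent within each library. That ratio was above 1 in 5 of 5 libraries (1.13 to 1.48). In the same neurons Htr1f and Htr7 were found together in 11 nuclei against 20.2, and the ratio was below 1 in 5 of 5 libraries (0.306 to 0.671). In GABAergic neurons the same pairs stood at 1.04 and 0.963 times the independent count, and in Tcf7l2 neurons at 0.961 and 1.06 times. In Tcf7l2 neurons Htr1f and Htr2c were found together in 53 nuclei against 101, with a ratio below 1 in 5 of 5 libraries (0.301 to 0.625), while in Sim1 neurons without Oxt that pair stood at 1.10 times. The pairs named were chosen after their values were seen. These ratios are descriptions, and the part that mixed types within a class have in them was not tested.

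Across 70 sums (14 types in 5 libraries), Htr2c and Htr4 levels went together (Pearson r = 0.79) and Htr2a and Htr2c less so (r = 0.57), while Htr1f and Htr2a went in opposite directions (r = -0.36). The genes most like Htr2c were Plcxd3 (r = 0.85), Ssbp2 (0.83) and Arhgap26 (0.82), and those most like Htr4 were Dgkg (0.87), Dlg2 (0.86) and Cacna1e (0.84). Htr2a was most like Dlgap2 (0.85), Ryr2 (0.82) and Dmd (0.81). Htr7 was most like Celf2 (0.76), Fam126b (0.75) and 1810041L15Rik (0.74). Htr1f was most like Spock3 (0.70), Etl4 (0.66) and Clmp (0.66), and Htr1b like Iqsec2 (0.69), Gm7854 (0.68) and Kcnip2 (0.67). By Spearman's rho in place of Pearson's r, 0 of these 3 genes stayed among the 3 most like Htr2c, 1 each for Htr4 and Htr7, and 2 each for Htr1b, Htr1f and Htr2a. The sums share libraries and their depth, so the correlations are given without a test.

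Prenatal VPA was compared with prenatal saline, with 1 library in each group, so there is no replicate check, no p-value, and intervals for counting error only. In all neurons none of the 6 receptors differed by 1.5 fold, where 2.98% of 17175 genes did. The log2 ratio (of CPM + 1) was -0.28 for Htr1f (-0.35 to -0.22), -0.11 for Htr7, -0.03 for Htr2c and for Htr4, 0.02 for Htr2a and 0.11 for Htr1b, against a median of 0.07 over all genes. With each neuron type given equal weight, Htr1f turned to 0.18 and Htr2a to -0.09. Under TMM scaling Htr2a also turned, to -0.06, and Htr1f was at -0.36. GABAergic neurons were 36.3% of saline and 34.7% of VPA neurons, Sim1 neurons 23.4% and 14.5%, and Tcf7l2 neurons 15.3% and 5.71%. A lineage was given to 2998 of 3820 saline and 4345 of 7562 VPA neurons, whose median UMIs were 13269.5 and 6152. A lineage needs a fixed number of marker UMIs, so these shares also depend on depth.

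Within the GABAergic lineage, 4 receptors were lower in the VPA library with counting intervals below 0, as were 13.1% of the 14420 genes compared there. Htr2c was 606 CPM against 724 CPM in saline (-0.26, -0.29 to -0.22), Htr1f 62.4 against 74.8 CPM (-0.26), Htr2a 18.9 against 22.7 CPM (-0.25) and Htr4 124 against 143 CPM (-0.20). The choroid plexus gene Ttr stood at 93.0 CPM in saline neurons and 0.172 CPM in VPA neurons, and its part in the Htr2c difference was not tested. None reached 1.5 fold, which 3.81% of genes did there, and the difference in GABAergic Htr2c between the CNO 1 and CNO 2 libraries, 468 against 585 CPM, was larger than that between saline and VPA on the log scale. In the Sim1 lineage Htr2c was 368 CPM in VPA against 417 CPM in saline (-0.18, -0.24 to -0.12), and Htr7 was 64.5 against 57.5 CPM (0.16, 0.01 to 0.33). In the Tcf7l2 lineage Htr1f was 167 against 145 CPM (0.20, 0.08 to 0.33). Of 24 values in 4 lineages 1 passed 1.5 fold, Htr2a in Tcf7l2 neurons, on 10 and 13 UMIs, a count near the background, since 7.63% of genes passed in Tcf7l2, 4.49% in Sim1 and 8.50% in other glutamatergic neurons. In Oxt neurons Htr2c was 61.1 CPM (46 UMIs) in VPA and 37.6 CPM (55 UMIs) in saline, a log2 ratio of 0.69 (0.10 to 1.29), past 1.5 fold as 9.89% of 6191 genes were. The other 5 receptors, among them Htr4, which was lower in VPA, had intervals that included 0 or no UMI there.

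**Figure D4:**
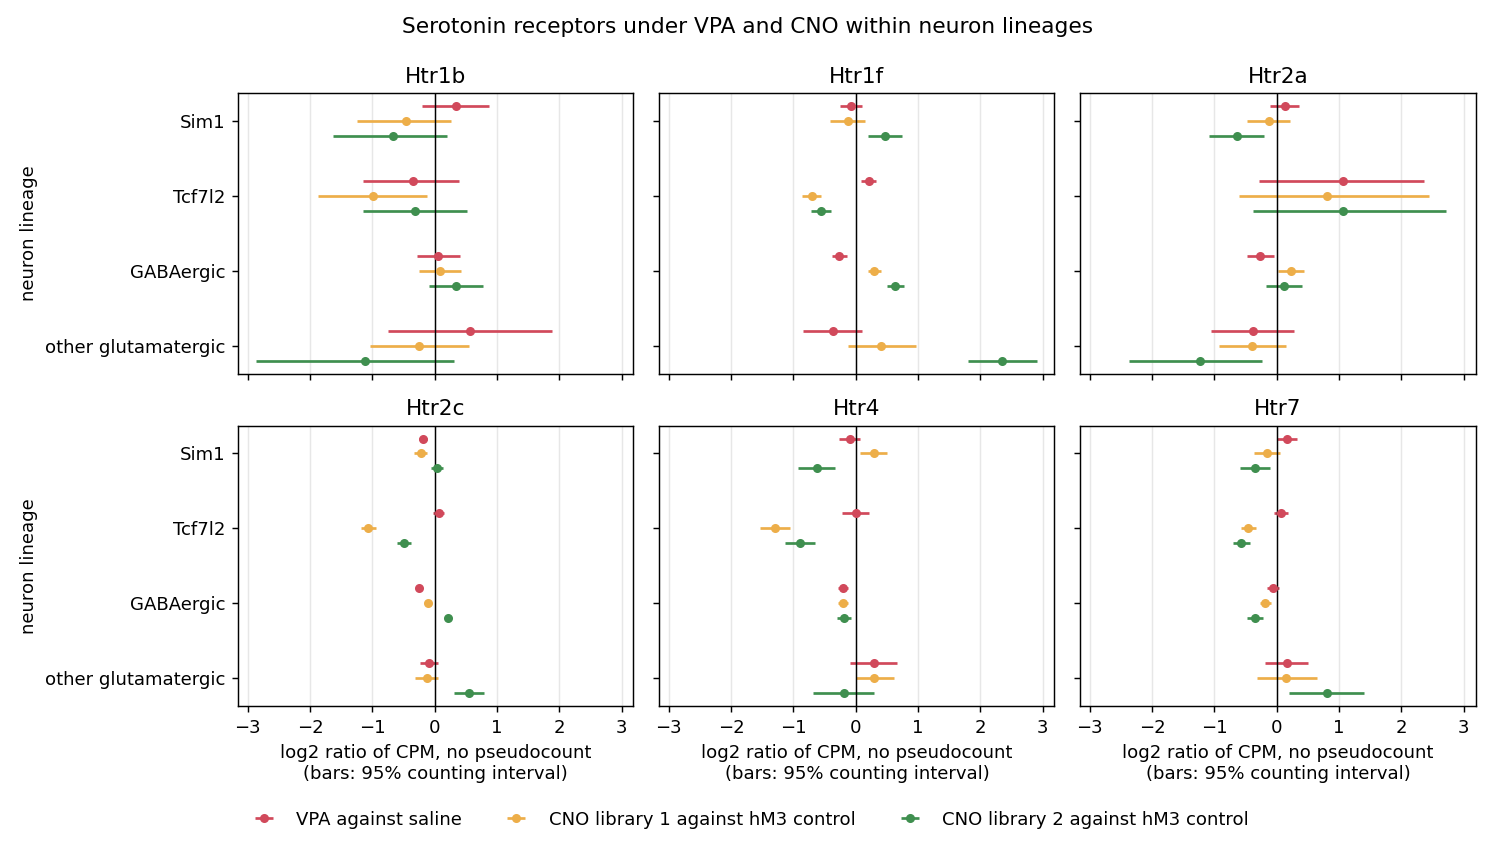
Log2 ratio of CPM (x axis, no pseudocount) of each receptor in 4 neuron lineages, for VPA against saline and for each CNO library against the hM3 control. Bars are 95% counting intervals. In Tcf7l2 neurons both CNO points lie below 0 for Htr1f, Htr2c, Htr4 and Htr7, and Htr1f in other glutamatergic neurons is at 2.34 in CNO 2.

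CNO given on postnatal day 2 was compared with the hM3 control in VPA-exposed hM3 mice. In all neurons none of the 6 receptors was called by edgeR, with log2 fold changes from -0.45 (Htr4, SE 0.25) to 0.02 (Htr1f, SE 0.27) and adjusted p = 1.00. The fit called 4 of 20218 genes (0.0198%) and took its spread from the 2 CNO libraries, so the lone control was assumed to vary like them. The smallest unadjusted p of a receptor was 0.0842, none was below 0.05 by edgeR or by DESeq2, and DESeq2 called 7 genes. By fold, 6.37% of 18057 genes passed 1.5 fold and no receptor did. Htr4 was 88.6 and 78.2 CPM in the CNO libraries against 106 CPM, and Htr7 95.8 and 92.2 CPM against 104 CPM. Htr2c was 369 and 426 CPM against 433 CPM. Htr1f was 66.5 and 88.6 CPM against 70.7 CPM, with the CNO libraries on either side of the control. GABAergic neurons, where Htr4 was highest, were 45.5% of neurons in the control and 42.3% and 21.5% in the CNO libraries, and Tcf7l2 neurons 7.36% against 12.1% and 16.2%. A lineage was given to 2191 of 3125 control neurons, 1799 of 2642 in CNO 1 and 1367 of 2743 in CNO 2. These shares thus also depend on depth. With each neuron type given equal weight, the log2 ratio of the CNO mean to the control went from -0.34 to -0.11 for Htr4, from -0.26 to -0.11 for Htr2a and from -0.12 to -0.05 for Htr2c, but from -0.15 to -0.29 for Htr7.

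Within the Tcf7l2 lineage 4 receptors were lower in both CNO libraries with counting intervals below 0, as were 6.13% of the 12488 genes compared there. Htr2c was 134 and 199 CPM against 280 CPM in the hM3 control (log2 ratios -1.06 and -0.49). Htr4 was 30.8 and 40.8 CPM against 75.6 CPM (-1.27 and -0.87), Htr1f 90.9 and 101 CPM against 148 CPM (-0.70 and -0.55), and Htr7 152 and 141 CPM against 209.1 CPM (-0.45 and -0.56). In this lineage 2.26% of genes passed 1.5 fold downwards by the mean of both CNO libraries. Htr2a went the other way, at 2.16 and 2.58 CPM against 1.24 CPM (0.50 and 0.68), on 17, 15 and 6 UMIs and with intervals that included 0. Its mean ratio of 0.59 passed 1.5 fold, as 13.2% of genes did in either direction. Htr1b was at -0.79 (-1.87 to -0.12) and -0.26 (-1.15 to 0.52). Tcf7l2 Prkcd nuclei, which had less Htr4 and Htr2c than the other Tcf7l2 nuclei, made up 0.672% of neurons in the control and 3.75% and 4.78% in the CNO libraries. Among Tcf7l2 other nuclei alone the log2 ratios were smaller: -0.86 and -0.33 for Htr2c, -0.81 and -0.54 for Htr4, -0.44 and -0.44 for Htr1f, and -0.08 and -0.24 for Htr7, where 1.10% of genes passed 1.5 fold downwards by the mean. Within Tcf7l2 Prkcd nuclei (21 in the control, 99 and 131 in the CNO libraries) they were -2.47 and -1.82 for Htr4, -1.50 and -1.65 for Htr7, -1.37 and -0.92 for Htr1f and -0.94 and -0.43 for Htr2c, where 24.4% of genes passed 1.5 fold by the mean (6.88% lower). No test of a single lineage was run with these 3 libraries.

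In the GABAergic lineage Htr1f was higher in both CNO libraries, at 73.9 and 93.5 CPM against 60.1 CPM (0.29 and 0.63, both intervals above 0, as in 12.1% of genes). Htr7 was lower in both, at 89.98 and 80.1 CPM against 102 CPM (-0.18 and -0.34), and so was Htr4, at 114 and 115 CPM against 131 CPM (-0.20 and -0.19), with both intervals below 0 for each, as in 4.55% of genes. By the mean of both CNO libraries no receptor passed 1.5 fold there, and 8.28% of 15170 genes did. In other glutamatergic neurons Htr1f was 41.7 CPM in CNO 1 and 159 CPM in CNO 2 against 31.4 CPM in the control (103, 96 and 42 UMIs), so the CNO libraries differed from each other more than CNO 1 did from the control. Htr7 there was 46.6 and 72.8 CPM against 41.8 CPM, with log2 ratios of 0.15 (-0.32 to 0.64) and 0.78 (0.20 to 1.39). Htr2a (-0.38 and -1.18) and Htr1b (-0.24 and -1.03) were lower there in both, with an interval below 0 for Htr2a in CNO 2 alone. Htr2c and Htr4 shared no direction. The mean ratios of Htr1f (1.65) and Htr2a (-0.73) passed 1.5 fold there, as 14.2% of 8862 genes did in either direction.

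In the Sim1 lineage the CNO libraries did not share a direction for Htr4, Htr1f or Htr2c. Htr4 was 72.7 and 38.6 CPM against 59.6 CPM in the control (0.28 and -0.61, neither interval including 0). Htr1f was 37.1 and 56.5 CPM against 40.6 CPM, and Htr2c 302 and 363 CPM against 353 CPM. Htr2a, at 25.7 and 18.2 CPM against 28.1 CPM (-0.13 and -0.60), and Htr7, at 67.6 and 59.1 CPM against 75.2 CPM (-0.15 and -0.34), were below the control in both, with intervals below 0 in CNO 2 alone. Htr1b was also below the control in both, at log2 ratios between -0.57 and -0.40, with intervals that included 0. In Oxt neurons Htr2c was 132 CPM in CNO 1 (34 UMIs in 13 nuclei) and 73.9 CPM in CNO 2 (35 UMIs) against 50.4 CPM (47 UMIs), with log2 ratios of 1.37 (0.70 to 2.05) and 0.54 (-0.12 to 1.21). The other 5 receptors in Oxt neurons had counts of 0 to 30 UMIs a library and intervals that included 0.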

How the data were processed

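Nuclei RNA was counted as UMIs in 5 droplet libraries. Per the file headers, the deposited matrices hold raw counts per gene and nucleus made by Cell Ranger 7.0.1, and the submitters' processing notes name the build mm10. Use of introns and strand is not given in the sources used here. Nuclei with under 1000 UMIs or over 5% mitochondrial UMIs were left out. Scrublet's automatic threshold (scanpy 1.11.5) marked at most 2.95% of a library, so the highest scores were removed at 0.8% per 1000 nuclei (149 to 944 nuclei).

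Neurons carried at least 40 neuron-marker UMIs per 10000, and classes needed 2 UMIs of their markers (6 for Tcf7l2 neurons, 5 Oxt UMIs for Oxt neurons). The choroid plexus-like class, 8 marker UMIs per 10000, was set apart after high Htr2c had been seen in glia, and 3 of its nuclei lay just inside that threshold with 12 saline nuclei between 5 and 8 per 10000.

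Counts were summed per library and class. Classes were compared with edgeR 4.0.16's quasi-likelihood test (TMM scaling, filterByExpr, library as a block, R 4.3.3) with Benjamini-Hochberg adjustment over all genes, and a gene is called at an adjusted p below 0.05. The Oxt, GABAergic and CNO fits were tested on simulated data. DESeq2 1.42.0 was an alternative, with other filters, scaling, marker thresholds and libraries left out. VPA and saline, with 1 library each, were compared by ratios of CPM with a pseudocount of 1 and exact 95% counting intervals. With the library as a block, differences in level between libraries are taken out. The p-values of class comparisons thus measure how far the difference between classes varied among libraries of pooled mice, with all treatments included. The fit of each type took its spread from the sums of all types and libraries, treated as independent apart from the block. Its small p-values therefore do not rest on the number of libraries alone. The CNO fit took its spread from the CNO libraries. The named genes are the 6 receptors, the 3 genes most correlated with each, and listed signalling genes that passed the test. The result of 1 listed gene is not reported here. Members and lists were chosen with earlier results of these data known.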

Additional observations from a re-analysis of the deposited data

Results flagged for a closer look

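Htr1f went in opposite directions in 2 neuron lineages under VPA, with 1 library per group. It was higher in Tcf7l2 neurons (log2 ratio 0.20) and lower in GABAergic neurons (-0.26), a gap of 0.461185, and that difference was not tested.

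Htr1f also went in opposite directions under CNO. Both CNO libraries were above the hM3 control in GABAergic neurons and below it in Tcf7l2 neurons, with a gap between the lineage means of 1.08571, and that difference was not tested either.

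The choroid plexus-like nuclei of the saline library, a class outside every comparison of neurons, held Htr2c at 23475.7 CPM.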

How the results depend on the processing

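In the comparison with other Sim1 neurons, all 6 receptors kept their lower call in Oxt neurons in each alternative in which they could be fitted. Without the library block fewer genes were called: 1667 for GABAergic against glutamatergic neurons (4356 with it), 1529 for Oxt neurons (2439) and 3931 for Sim1 against Tcf7l2 neurons (6403). By type the counts without it were 357 for GABA Foxp2, 590 for GABA Lhx1/Lhx1os, 739 for GABA Meis2, 484 for GABA Prox1, 647 for GABA Reln, 487 for GABA other, 1057 for Sim1 Ebf, 1041 for Sim1 Reln, 913 for Sim1 other, 3351 for Tcf7l2 other and 448 for other glutamatergic neurons. Stricter markers gave 495 for GABA Lhx1/Lhx1os and 376 for GABA Pax6. Leaving out 1 library gave 461 to 754 for GABA Foxp2, 607 to 932 for GABA Lhx1/Lhx1os, 359 to 581 for GABA Pax6, 945 to 1555 for GABA Reln, 1218 to 1799 for Sim1 Reln and 616 to 987 for other glutamatergic neurons. The lowest counts came without the hM3 control library (GABA Foxp2, GABA Lhx1/Lhx1os, GABA Reln, other glutamatergic) or without the saline library (GABA Pax6, Sim1 Reln).

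The Htr1b difference between Sim1 and Tcf7l2 neurons, 0.01, turned to -0.10 with stricter markers and ranged from -0.10 to 0.23 when 1 library was left out (-0.04 without VPA, -0.03 without the hM3 control). Without the block 14 receptor calls were lost. They were Htr2c there (0.33, adjusted p = 0.304 by edgeR), Htr1f in GABAergic neurons (-0.36, adjusted p = 0.189), and among types Htr2c in GABA Meis2, GABA Prox1, GABA other, Sim1 Reln, Sim1 other and Tcf7l2 other, Htr1f in GABA Reln and GABA other, Htr7 in GABA Reln and other glutamatergic, Htr4 in GABA Foxp2 and Htr1b in GABA other. DESeq2 lost Htr1f and Htr7 in GABA Reln. Stricter markers lost Htr2a and Htr2c in GABA Prox1, Htr4 in GABA Pax6 and Htr7 in other glutamatergic neurons, and the last was also lost with doublets kept. For CNO the 4 genes called became 7 with DESeq2, 13 with doublets kept and 22 with no filter. Genes past 1.5 fold under VPA (512) were 123 with a larger pseudocount and 1581 with none, and under CNO (1151) they were 348 and 2923, and 734 to 2472 with a single CNO library. The causes were not tested. No paired analysis was possible because only the CNO libraries carry replicate numbers in the labels. Counts limit Htr1b in Oxt neurons and Htr2a in Tcf7l2 Prkcd nuclei, with 1 UMI each in all.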
